A study of Mus musculus with 6 samples.

Results

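NRF2, encoded by Nfe2l2, is the main transcription factor of the cellular response to oxidants and electrophiles, and the 10 genes described here are its control genes, its small MAF partners and a set of its target genes. The genes were Nfe2l2, Keap1, Mafg, Mafk, Maff, Gclm, Gclc, Osgin1, Hmox1 and Nqo1. They were picked by symbol, and all 10 were found among the 22180 genes that the array annotation pairs with a probe set of a single symbol. Only Keap1 had more than 1 such probe set, and the one with the highest mean over the 6 arrays was used.

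The cells were primary hepatocytes of wild type adult male C57Bl/6 mice in serum-free William's medium, treated for 4 h with 2 µM GW4064 (3 arrays) or with the solvent DMSO (3 arrays). GW4064 is a synthetic ligand that activates FXR, a nuclear receptor for bile acids, and the comparison asks which hepatocyte genes it regulates. RNA came from 3 independent preparations according to the series design text, and same-numbered arrays are called a pair below. Both groups are cultured cells at a single dose and a single time, and precision is limited by the number of arrays.

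In unstressed cells KEAP1 holds NRF2 and passes it to a CUL3 ubiquitin ligase for degradation. When oxidants or electrophiles modify KEAP1, NRF2 escapes, enters the nucleus and binds antioxidant response elements (AREs) as a heterodimer with MAFG, MAFK or MAFF. BACH1 can hold the same elements in a repressed state. Known targets in liver include both subunits of glutamate-cysteine ligase, which carries out the limiting step of glutathione synthesis, and the enzymes encoded by Hmox1 and Nqo1.

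The arrays carried the FXR response and a hepatocyte profile. Abcb11, the bile salt export pump gene, was 8.47-fold higher with GW4064 (limma adjusted p = 3.70e-05), and Nr0b2, the gene of the repressor SHP, was 5.18-fold higher (limma adjusted p = 1.17e-04). All 10 hepatocyte markers lay above the median level of all genes. Past an unadjusted p of 0.05, 1 of the 10 differed, Hnf4a, which was higher with a log2 change of 0.55 (limma adjusted p = 0.393), and with the block Tat (-0.21) and Serpina1a (-0.25) were lower as well. Of 30 measured markers of 5 other liver or blood cell types, 1 differed at that threshold, the cholangiocyte marker Sox9 (0.45). With the block the endothelial marker Pecam1 (0.27) was higher as well. Over all genes 2.6% were higher and 3.06% lower at that threshold, and with the block 4.01% and 5.12%. Some markers of these other types also lay above the median level of all genes. They were 2 of 8 for macrophages, 4 of 6 for endothelial cells and 1 of 7 for stellate cells. For cholangiocytes they were 3 of 5 and for leukocytes 1 of 4. Replicate 3 stood apart in both groups for the near-identical heat shock genes Hspa1a and Hspa1b. Hspa1a read 4.77, 4.62 and 6.86 with GW4064 and 4.55, 4.71 and 6.86 with DMSO. Other stress genes differed there too. Atf3 read 7.74, 7.41 and 8.69 with GW4064 and 7.58, 7.25 and 8.59 with DMSO. Ddit3 read 5.85, 5.30 and 6.89 with GW4064 and 5.37, 5.63 and 6.78 with DMSO. Gadd45b was instead lowest in replicate 3, at 8.73 with GW4064 and 8.35 with DMSO. In bulk RNA, fewer cells of a type and less RNA per cell cannot be told apart.

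At 4 h no gene of the 10 passed an adjusted p of 0.05 over all genes (limma, Benjamini-Hochberg), where 0.0496% of all genes passed as higher and 0% as lower. With the replicate number as a block none passed either, and their adjusted p ran from 0.0688 to 0.898, beside 0.0721% of all genes higher and 0.00902% lower. Past an unadjusted p of 0.05, 4 of the 10 stood higher with GW4064 (Gclm, Mafg, Osgin1 and Hmox1) and 1 was lower (Gclc), beside 2.6% of all genes higher and 3.06% lower. With the block Nfe2l2 joined the higher genes, which made 5, beside 4.01% of all genes higher and 5.12% lower. Of the 10 genes, 7 had a log2 change above 0 and 3 below 0, beside 44.6% and 55.4% of all genes. The median log2 change of the 10 genes was 0.17, against -0.02 over all genes.

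The 3 GW4064 arrays lay above the 3 DMSO arrays without overlap for 3 of the 10 genes, Gclm, Mafg and Osgin1, and below them for Gclc. Over all genes 4.58% were separated upwards and 6.19% downwards. Hmox1 and Nfe2l2 overlapped between the groups, and both were higher in each of the 3 pairs. In all, 5 of the 10 genes were higher in all 3 pairs and 2 were lower in all 3, beside 12.6% and 18.6% of all genes. Pair 3 stood apart for the heat shock genes, Atf3 and Ddit3. Without it the log2 changes in the blocked fit were 0.69 for Gclm, 0.65 for Mafg, 0.71 for Osgin1, 0.55 for Hmox1 and -0.36 for Gclc. Each kept the direction it had over all 6 arrays.

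**Figure D1:**
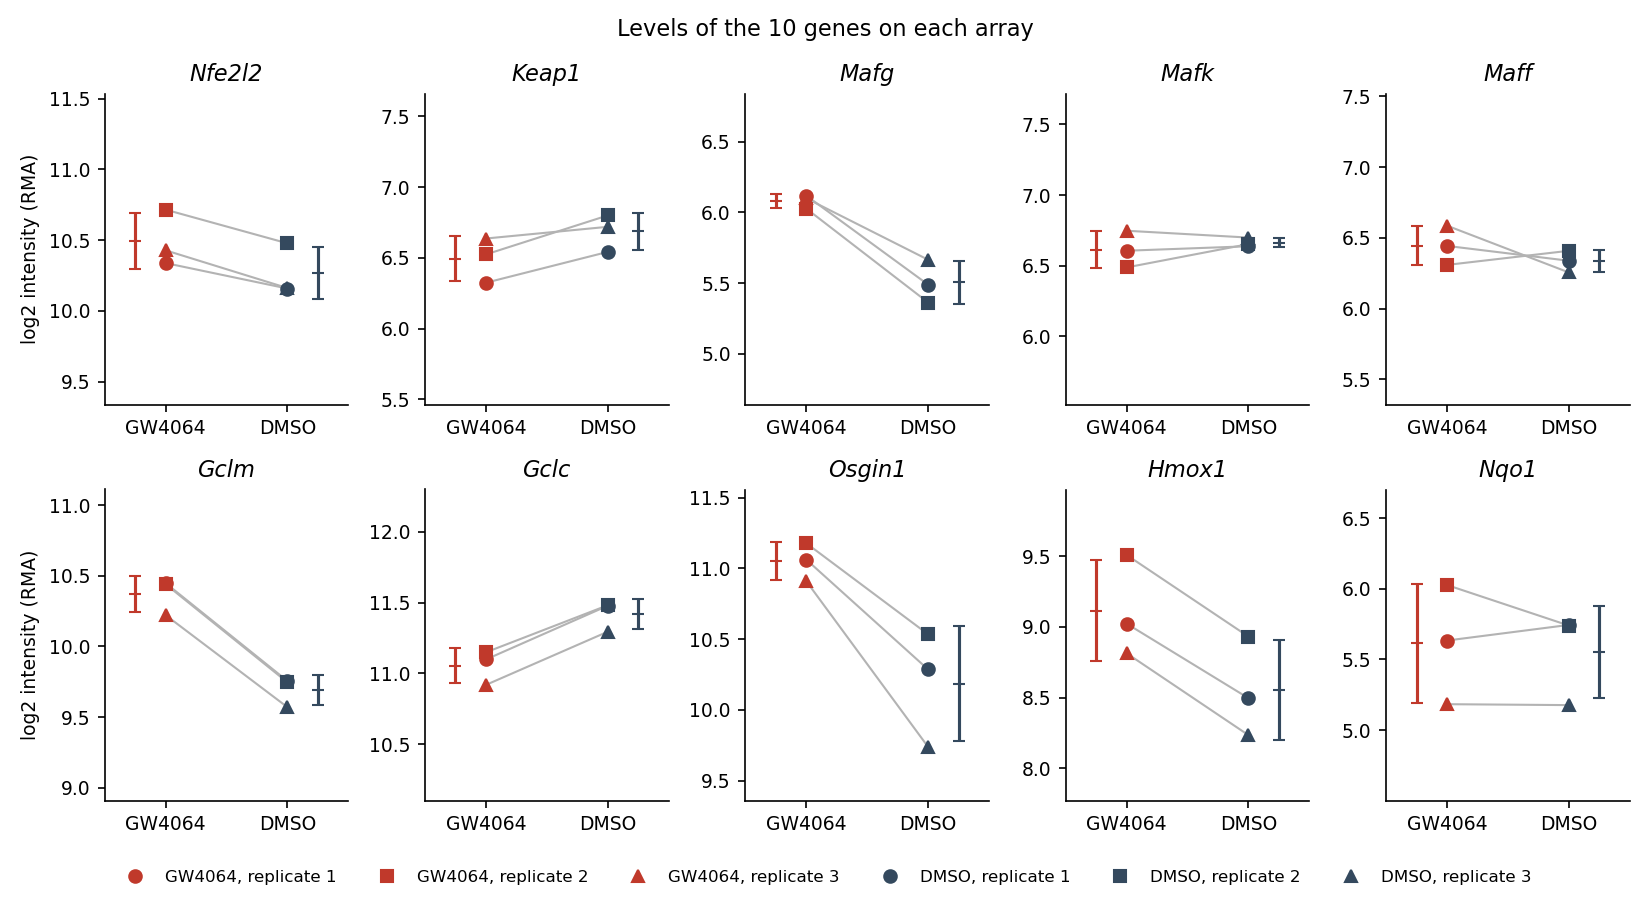
Levels of the 10 genes as log2 RMA intensity on each of the 6 arrays, with GW4064 on the left and DMSO on the right of each panel. Lines join same-numbered arrays, and the bars beside the points are mean and SD (n = 3). Each panel spans the same height on the log2 axis. GW4064 arrays sit above all DMSO arrays for Mafg, Gclm and Osgin1 and below them for Gclc.

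Promoter windows were examined because several of these genes were higher together, a choice made after their values were seen. RefSeq windows of 300 bases (250 before and 50 after an annotated start, GRCm38.p6) were available for 8 of the 10 genes, in 10 windows. Windows of Gclc and Hmox1 were not used here. The 3 genes that separated upwards are shown, and Mafk, whose level differed little, is shown for contrast. Capitals mark the ARE core TGACNNNGC on either strand, and in the Osgin1 window, which lacks that core, the AP-1 motif TGACTCA. The windows lie at chr3:122245307-122245606 (plus strand) for Gclm, chr11:120633498-120633797 (minus strand) for Mafg, chr8:119436897-119437196 (plus strand) for Osgin1 and chr5:139791286-139791585 (plus strand) for Mafk. The Mafg and Osgin1 windows lie wholly inside the annotated genes (chr11:120625117-120634955 and chr8:119425882-119446257). Their starts are therefore not the outermost ones of these genes. The Gclm window begins before the annotated gene (chr3:122245487-122267215). Its start, after 250 bases of the window, lies inside that gene and is likewise not the outermost one.
Gclm: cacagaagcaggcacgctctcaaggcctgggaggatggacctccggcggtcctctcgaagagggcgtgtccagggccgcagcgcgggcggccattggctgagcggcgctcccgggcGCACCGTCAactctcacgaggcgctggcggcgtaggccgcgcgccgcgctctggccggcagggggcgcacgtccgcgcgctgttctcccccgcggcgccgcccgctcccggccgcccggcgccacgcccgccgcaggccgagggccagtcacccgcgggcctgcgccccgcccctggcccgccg
Mafg: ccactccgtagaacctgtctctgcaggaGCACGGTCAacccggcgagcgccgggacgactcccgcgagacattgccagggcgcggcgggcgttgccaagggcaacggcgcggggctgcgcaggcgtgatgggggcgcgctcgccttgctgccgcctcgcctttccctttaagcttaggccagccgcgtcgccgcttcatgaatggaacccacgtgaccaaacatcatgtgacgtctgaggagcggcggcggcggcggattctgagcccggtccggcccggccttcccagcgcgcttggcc
Osgin1: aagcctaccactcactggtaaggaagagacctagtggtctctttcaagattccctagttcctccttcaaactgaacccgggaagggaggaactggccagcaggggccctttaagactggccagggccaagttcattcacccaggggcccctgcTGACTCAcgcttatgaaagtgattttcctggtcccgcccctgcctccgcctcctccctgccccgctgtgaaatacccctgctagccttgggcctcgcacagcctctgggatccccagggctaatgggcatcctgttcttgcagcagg
Mafk: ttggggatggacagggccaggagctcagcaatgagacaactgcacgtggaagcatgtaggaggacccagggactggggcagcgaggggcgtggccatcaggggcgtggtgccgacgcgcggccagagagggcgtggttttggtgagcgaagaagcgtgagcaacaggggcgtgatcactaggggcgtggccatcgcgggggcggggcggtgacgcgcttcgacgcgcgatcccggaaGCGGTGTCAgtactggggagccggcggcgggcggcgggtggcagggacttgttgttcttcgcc

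The ARE core was found in 5 of the 10 windows, 1 each for Nfe2l2, Gclm, Mafk, Mafg and Maff, and in 12.4% of all 32851 windows. The match in Gclm reads GCACCGTCA on the coding strand and begins 134 bases before the start used for its window, which lies inside the gene. The match in Mafg reads GCACGGTCA and begins 222 bases before the start used for its window, which lies inside the gene. That in Mafk reads GCGGTGTCA and begins 13 bases before the Mafk start. The core was thus present in Gclm and Mafg, which separated upwards, and in Nfe2l2, Mafk and Maff, whose groups overlapped. The Osgin1 window lacked it, though Osgin1 also separated upwards. TGACTCA was found in the Osgin1 window 97 bases before the start used there, which lies inside the gene. It was in no other window of the 10, and in 5.2% of all windows. The nuclear receptor hexamer AGGTCA, searched on both strands, had no match in the 10 windows, and 16.3% of all windows hold it. These matches describe letters in short windows and do not show binding.

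Nfe2l2 (probe set 17386700) was slightly higher with GW4064 in every pair. Its log2 levels were 10.34, 10.72 and 10.43 with GW4064 and 10.16, 10.48 and 10.16 with DMSO in replicates 1, 2 and 3. The groups overlapped, since the DMSO array of replicate 2 lay above the GW4064 arrays of replicates 1 and 3. The log2 change was 0.23 (SE 0.13, limma adjusted p = 0.957), with pair differences of 0.18, 0.24 and 0.27. Its 95% interval ran from -0.07 to 0.53 without the block and from 0.04 to 0.42 with it. The change was 0.12 without GW4064 replicate 2, and in the blocked fit Nfe2l2 missed the unadjusted threshold with any of the 3 pairs left out.

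Keap1 (probe set 17524659), the gene of the NRF2 inhibitor, was lower in every pair. Its levels were 6.32, 6.52 and 6.64 with GW4064 and 6.54, 6.80 and 6.72 with DMSO. The groups overlapped, and the log2 change of -0.19 (95% interval -0.45 to 0.07, limma adjusted p = 0.961) lay within the spread between replicate numbers. The second Keap1 probe set, 17515128, gave -0.08 and differed in direction between pairs. It read 4.41, 4.03 and 4.38 with GW4064 and 3.98, 4.38 and 4.70 with DMSO.

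The other genes of NRF2 control had small changes. Of 14 measured genes of this list, 0 passed an unadjusted p of 0.05 in either direction, and their log2 changes ran from -0.20 to 0.14. Cul3, the ligase scaffold that works with KEAP1, had -0.06 (SE 0.09), and Sqstm1, whose p62 protein binds KEAP1, had 0.01 (SE 0.10). Bach1, the repressor of ARE genes, had 0.14 (SE 0.14), and the related factor gene Nfe2l1 had -0.08 (SE 0.11). Btrc, whose product is part of a KEAP1-independent route of NRF2 degradation, had the smallest p of the list, with -0.20 (SE 0.10, limma adjusted p = 0.910). Its 3 GW4064 arrays lay below the 3 DMSO arrays, as did those of Rxra (log2 change -0.13) and Crebbp (-0.11). Of the 14 genes these 3 were separated downwards and 0 upwards, beside 6.19% and 4.58% of all genes.

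Small MAF proteins are basic leucine zipper factors without an activation domain that serve as partners of NRF2 and of BACH1. Mafg (probe set 17273231) was higher with GW4064. Its levels were 6.12, 6.03 and 6.10 with GW4064 and 5.49, 5.36 and 5.66 with DMSO, and the GW4064 arrays lay close together above all DMSO arrays. It was 1.49-fold higher (95% interval 1.27 to 1.76), with a log2 change of 0.58 (SE 0.10, limma adjusted p = 0.212, 0.153 with the block). By p-value Mafg stood 39th of 22180 genes. Pair differences were 0.63, 0.66 and 0.43.

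Neither of its relatives separated. Mafk (probe set 17444037) read 6.61, 6.49 and 6.75 with GW4064 and 6.64, 6.65 and 6.70 with DMSO. Its GW4064 arrays spread around the tight DMSO values, and its log2 change was -0.05 (95% interval -0.27 to 0.17). Maff (probe set 17312989) read 6.44, 6.31 and 6.59 with GW4064 and 6.34, 6.41 and 6.26 with DMSO, with a change of 0.11 (95% interval -0.12 to 0.35) and a lower GW4064 value in pair 2.

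The difference between Mafg and each relative was compared within arrays, as a test of whether they changed alike. Mafg minus Mafk was -0.53 ± 0.10 with GW4064 and -1.16 ± 0.13 with DMSO (log2, mean ± SD, n = 3 arrays each), so the change of Mafg lay 0.63 above that of Mafk. Mafg minus Maff was -0.37 ± 0.11 with GW4064 and -0.83 ± 0.23 with DMSO, a difference in change of 0.46. The groups did not overlap in either case. The exact two-sided permutation test gave p = 0.1 for each, the smallest value that 3 against 3 arrays can give, and 0.1 after adjustment over the 4 differences of this kind. The pair values were 0.66, 0.83 and 0.39 for Mafk and 0.52, 0.76 and 0.10 for Maff, so the separation from Maff was small in pair 3.

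The large MAF genes, which encode relatives with an activation domain, had 3 measured members. Maf had a log2 change of -0.32 (SE 0.11, limma adjusted p = 0.789) and Nrl 0.32 (SE 0.09, limma adjusted p = 0.698), each without overlap between the groups. Their levels of 3.96 with GW4064 and 4.28 with DMSO for Maf, and 4.14 with GW4064 and 3.82 with DMSO for Nrl, lay near the median of 4.20 over all genes. Mafa had -0.20 (SE 0.13) and overlapped between the groups. Of the 3 genes, 1 was separated upwards and 1 downwards, beside 4.58% and 6.19% of all genes. Past an unadjusted p of 0.05, 1 was higher (Nrl) and 1 lower (Maf), beside 2.6% and 3.06% of all genes.

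Glutamate-cysteine ligase joins glutamate and cysteine with a catalytic subunit, GCLC, whose activity is raised by the modifier subunit, GCLM. The genes of the 2 subunits differed from DMSO in opposite directions with GW4064. Gclm (probe set 17402283) read 10.45, 10.44 and 10.22 with GW4064 and 9.76, 9.75 and 9.57 with DMSO. It was 1.60-fold higher (95% interval 1.36 to 1.89), with a log2 change of 0.68 (SE 0.11) and pair differences of 0.69, 0.69 and 0.65. Every GW4064 array lay above every DMSO array, and Gclm stood 21st of 22180 genes by p-value. Its limma adjusted p was 0.122, 0.0688 with the block, and 0.0339 with limma's trended and robust variances, the 1 setting of 17 in which any of the 10 genes passed.

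Gclc (probe set 17519579) read 11.10, 11.15 and 10.92 with GW4064 and 11.48, 11.48 and 11.29 with DMSO. Every GW4064 array lay below every DMSO array. Its level with GW4064 was 0.778 of that with DMSO (95% interval 0.660 to 0.917), a log2 change of -0.36 (SE 0.10, limma adjusted p = 0.688, 0.265 with the block). The pair differences were -0.38, -0.33 and -0.38. In both groups replicate 3 was the lowest array for Gclm and for Gclc. The subunits thus varied alike between replicate numbers while differing in their change with GW4064.

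The difference between the subunits was almost constant within each group. Gclm minus Gclc was -0.65, -0.71 and -0.70 with GW4064 and -1.72, -1.73 and -1.72 with DMSO. The SD was 0.03 with GW4064 and 0.007 with DMSO, against a shift of 1.04 between the groups. In the pairs the shift was 1.07, 1.03 and 1.03. The exact two-sided permutation test gave p = 0.1, the smallest it can give (0.1 after adjustment over 4 differences). Probe sets differ in their response, so the shift measures the change in the balance of the subunit RNAs and not their ratio in the cell.

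**Figure D2:**
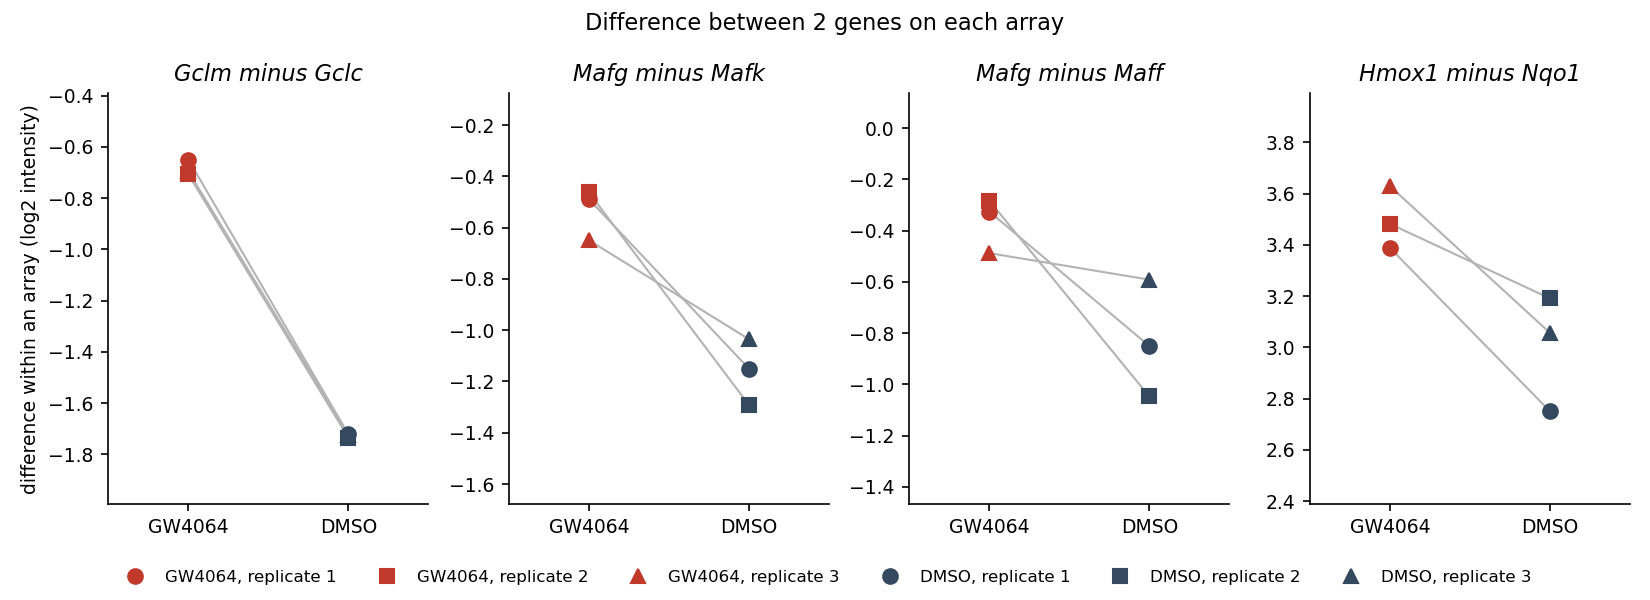
Difference in log2 intensity between 2 genes on the same array, with GW4064 on the left and DMSO on the right of each panel and lines joining same-numbered arrays (n = 3 arrays per group). Each panel spans the same height. Gclm minus Gclc lay between -0.71 and -0.65 with GW4064 and between -1.73 and -1.72 with DMSO, and the other 3 differences also separated, with wider spread.

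The other genes of glutathione synthesis, recycling and breakdown had smaller changes than Gclm. Of 21 measured, 1 passed an unadjusted p of 0.05 as higher and 1 as lower, beside 2.6% and 3.06% of all genes. After adjustment 0 passed, and the median log2 change was -0.05. Gss, which adds glycine in the final step of synthesis, had -0.05 (SE 0.14). Gsr, which recycles oxidised glutathione, had 0.04 (SE 0.09), and Slc7a11, the cystine importer gene, had 0.15 (SE 0.30).

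The gene past the unadjusted threshold in each direction acts in the gamma-glutamyl cycle, which breaks glutathione down and recovers its amino acids. The list holds further genes of this cycle, so the shared role is not a result about the cycle. Oplah, whose enzyme opens 5-oxoproline to glutamate, had -0.33 (SE 0.09, limma adjusted p = 0.641), with 6.64, 6.68 and 6.61 with GW4064 and 6.90, 7.07 and 6.96 with DMSO. Ggct, whose enzyme releases 5-oxoproline, had 0.24 (SE 0.10, limma adjusted p = 0.863), with 4.97, 5.12 and 5.20 with GW4064 and 4.80, 4.90 and 4.88 with DMSO. Neither overlapped between the groups, beside 4.58% of all genes separated upwards and 6.19% downwards. Chac2, an enzyme gene that degrades glutathione, had 0.20 (SE 0.11), and Glrx, a glutaredoxin gene, had -0.16 (SE 0.11).

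Osgin1 (probe set 17506081), an oxidative stress gene linked to growth inhibition, had the largest change of the 10. Its levels were 11.06, 11.18 and 10.91 with GW4064 and 10.29, 10.53 and 9.74 with DMSO. Every GW4064 array lay above every DMSO array, and the DMSO arrays spread over 0.80 because replicate 3 was low. It was 1.82-fold higher (95% interval 1.36 to 2.43), with a log2 change of 0.86 (SE 0.19, limma adjusted p = 0.390, 0.119 with the block). Pair differences were 0.78, 0.64 and 1.17, and the change was 0.64 without DMSO replicate 3. Osgin2, its relative, was lower without overlap, at 5.08, 5.14 and 5.17 with GW4064 and 5.25, 5.33 and 5.40 with DMSO (log2 change -0.20, SE 0.09, limma adjusted p = 0.909, 0.532 with the block). Osgin2 passed an unadjusted p of 0.05 with the block and not without it.

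Hmox1 (probe set 17502573) encodes the inducible heme oxygenase, which opens heme to biliverdin, carbon monoxide and iron. Its levels were 9.02, 9.51 and 8.81 with GW4064 and 8.50, 8.93 and 8.23 with DMSO. The means of same-numbered arrays ranged over 0.70, more than the change with GW4064, and the groups overlapped. Within pairs the difference was steady, at 0.53, 0.58 and 0.58. The log2 change was 0.56, with an SE of 0.21 without the block and 0.08 with it (limma adjusted p = 0.851, 0.123 with the block). By p-value Hmox1 stood 671st of 22180 genes without the block and 47th with it. Its fold was 1.48 (95% interval 1.06 to 2.05 without the block). In the unblocked fit it missed the unadjusted threshold when GW4064 replicate 2 (log2 change 0.36), DMSO replicate 1 (0.53) or DMSO replicate 3 (0.40) was left out. In the blocked fit it stayed past that threshold with any of the 3 pairs left out (log2 change 0.55 to 0.58).

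Macrophages also express Hmox1. The mean log2 level of 8 macrophage markers was 3.93 to 4.18 over the GW4064 arrays and 4.05 to 4.21 over the DMSO arrays, and 0 of the 8 differed at an unadjusted p under 0.05. Adgre1, a defining marker, averaged 2.92 with GW4064 and 2.99 with DMSO, while Cd68 averaged 9.42 with GW4064 and 9.39 with DMSO. The part of these cells in the Hmox1 result was not tested.

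The other genes of heme breakdown and iron storage had smaller changes than Hmox1. Of 10 measured genes 0 differed at an unadjusted p under 0.05, and the median log2 change was 0.03. The constitutive heme oxygenase gene Hmox2 had 0.05 (SE 0.09). Blvrb, a biliverdin reductase gene, had 0.16 (SE 0.10) and its GW4064 arrays lay above the DMSO arrays. Slc40a1, which encodes the iron exporter ferroportin, had 0.25 (SE 0.18).

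Nqo1 (probe set 17512732), the NAD(P)H quinone reductase gene often used as a readout of NRF2, had a change near 0. Its levels were 5.63, 6.03 and 5.18 with GW4064 and 5.74, 5.74 and 5.18 with DMSO. Replicate 3 was low in both groups, and the pair differences of -0.11, 0.29 and 0.01 had no common sign. The log2 change was 0.06 (95% interval -0.44 to 0.56 without the block, -0.18 to 0.30 with it). The unblocked interval still takes in a change of the size of the Hmox1 value, and the blocked interval does not. Hmox1 minus Nqo1 was 3.50 ± 0.12 with GW4064 and 3.00 ± 0.23 with DMSO (n = 3 arrays each), a difference in change of 0.50 with no overlap (exact two-sided permutation p = 0.1, the smallest possible). Nqo2, its relative, had -0.02 (SE 0.15).

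**Figure D3:**
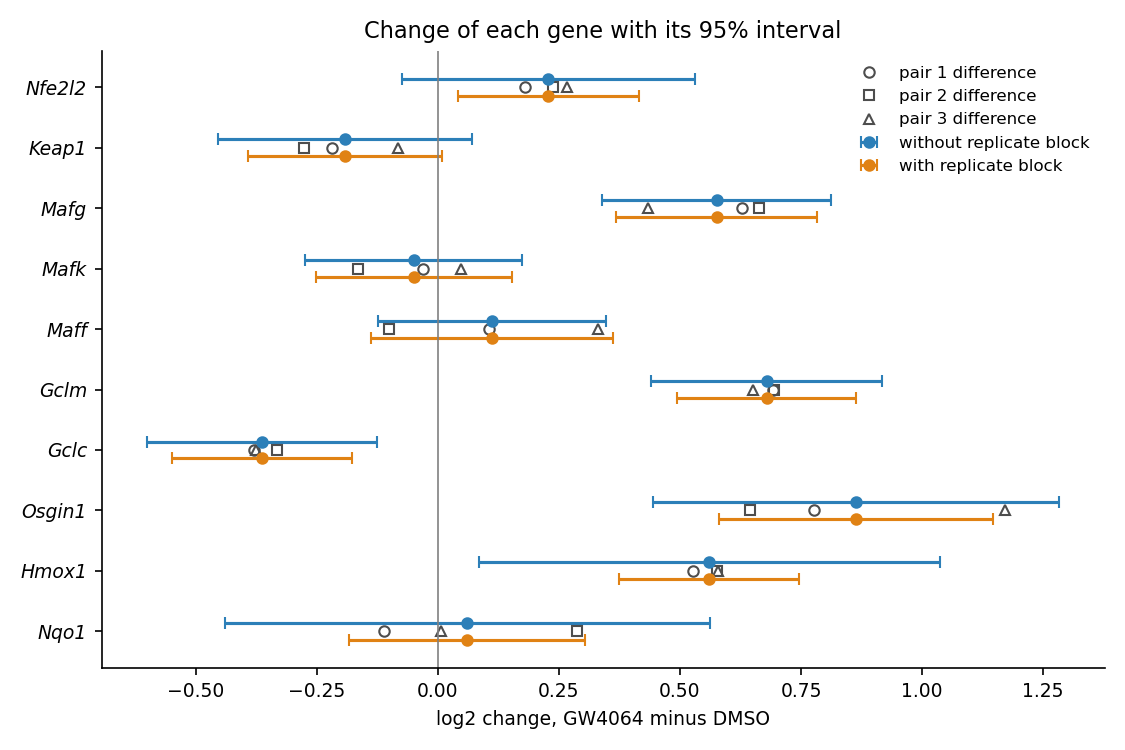
Log2 change of each of the 10 genes, GW4064 minus DMSO, with 95% intervals from limma without (blue) and with (orange) the replicate number as a block; open symbols are the 3 pair differences. The intervals of Mafg, Gclm, Osgin1 and Hmox1 lie above 0 and that of Gclc below 0 in both fits, and the Hmox1 and Nqo1 intervals are less wide with the block.

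Among other genes of the antioxidant response, 119 were listed in 8 lists and 105 were measured. Of these 5 passed an unadjusted p of 0.05 as higher and 3 as lower, beside 2.6% and 3.06% of all genes. With the block these counts were 7 and 4, beside 4.01% and 5.12% of all genes. After adjustment over all genes 0 passed without the block and 1 with it. Their median log2 change was -0.01.

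In conjugation and export, 3 of 23 measured genes passed an unadjusted p of 0.05 as higher and 0 as lower. Over all genes 2.6% and 3.06% did. With the block 5 were higher and 0 lower, beside 4.01% and 5.12% of all genes. The added genes were Gstm2 (log2 change 0.26) and Gstm6 (0.22). Gsta4, a glutathione transferase gene acting on lipid peroxidation products, read 8.64, 9.20 and 8.52 with GW4064 and 7.72, 8.27 and 7.58 with DMSO. It was 1.90-fold higher (limma adjusted p = 0.512 without the block), and with the block it rose at an adjusted p of 0.0374. Gstm3 read 9.09, 9.52 and 8.76 with GW4064 and 8.61, 8.64 and 7.67 with DMSO (log2 change 0.82, SE 0.27, limma adjusted p = 0.783), and Mu class genes are similar in sequence, so their probe sets may share signal. Abcc2, the canalicular conjugate exporter gene, had 0.30 (SE 0.11).

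Most peroxide and thioredoxin enzymes stayed near 0, with a median log2 change of -0.001 over 17 measured genes. Of these 3 were separated upwards, Txnrd1, Txnrd2 (0.15) and Gpx1 (0.10), and 0 downwards, beside 4.58% and 6.19% of all genes. Txnrd1 and Srxn1, thioredoxin reductase and sulfiredoxin genes that NRF2 is known to control, had 0.10 each (SE 0.09 and 0.10). Txnip, an inhibitor of thioredoxin, was the 1 gene past the unadjusted threshold and was lower, beside 3.06% of all genes lower. Its levels were 6.30, 6.04 and 6.92 with GW4064 and 6.77, 7.44 and 7.58 with DMSO (log2 change -0.85, SE 0.25, limma adjusted p = 0.739). In NADPH supply, 0 of 5 measured genes differed at an unadjusted p under 0.05, and changes ran from -0.08 to 0.07. Among 12 measured genes of OSGIN and other stress responses 0 differed at that threshold without the block. With it 1 was lower, Osgin2, beside 5.12% of all genes lower. Cdkn1a had -0.15 (SE 0.10).

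**Figure D4:**
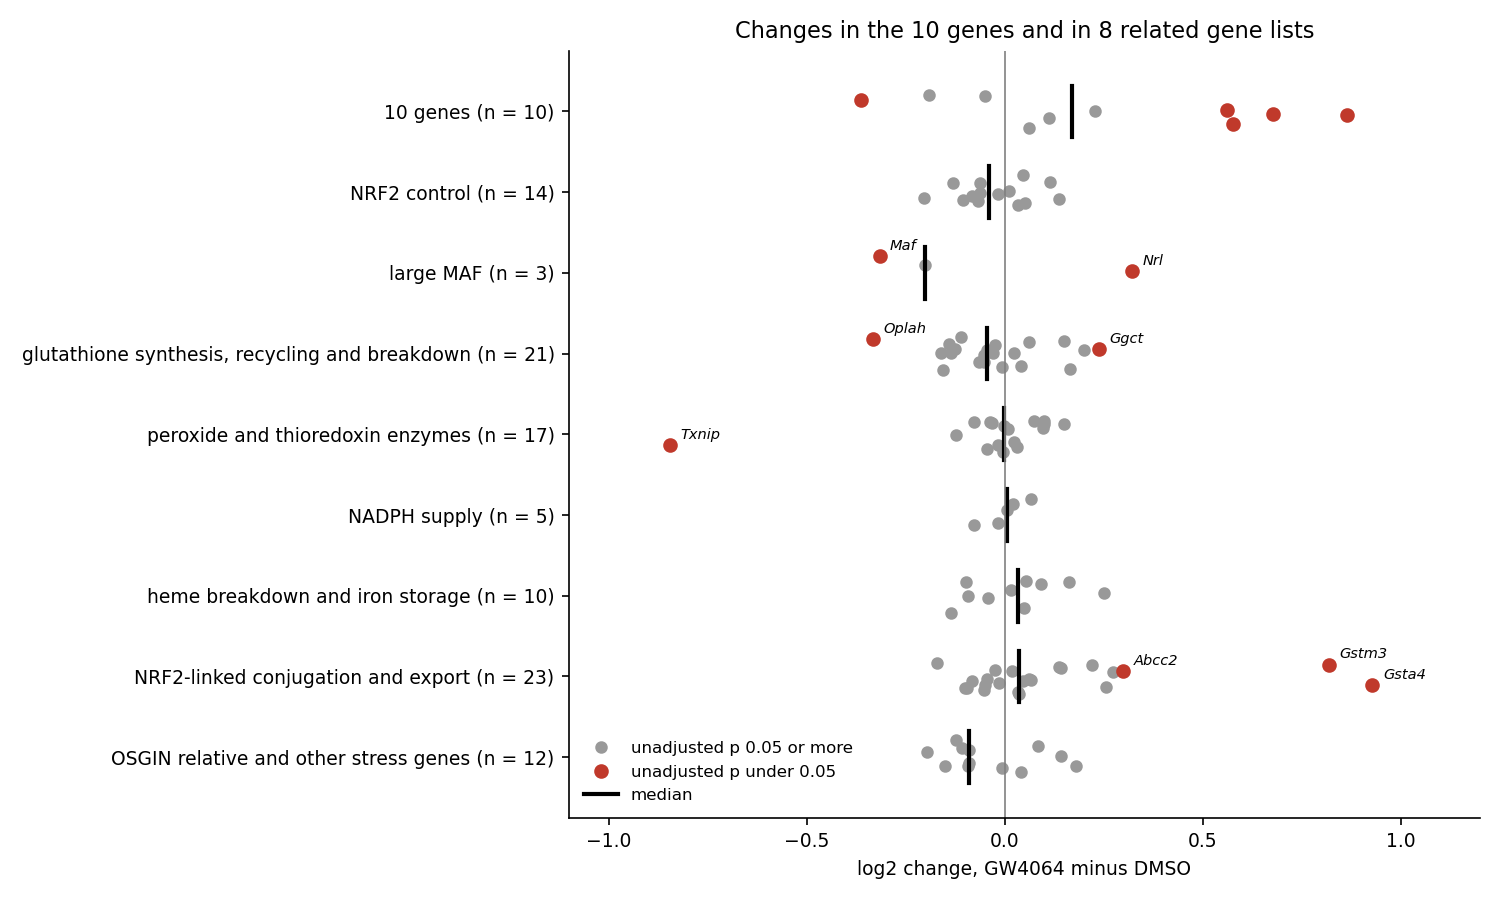
Log2 change, GW4064 minus DMSO, of each measured gene in the 10 genes described here and in 8 lists of related genes; points are genes, black bars are list medians, and red marks an unadjusted limma p under 0.05. The 10 genes spread from -0.36 to 0.86, while most genes of the 8 lists lie near 0, apart from Gsta4, Gstm3 and Txnip.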

How the data were processed

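The authors normalized the arrays with RMA and deposited 1 log2 intensity for each probe set. RMA and Partek are named, with no version, per the submitters' processing notes. No source gives the log base, which was read as 2 because the values span 0.94 to 13.07. Per the labels' protocols, RNA was measured on 1-colour Affymetrix arrays. Of 41345 probe sets, 23521 had 1 gene symbol in the platform annotation, 1814 had several and 16010 none, and the probe set with the highest mean was kept per gene.

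Changes were fitted with limma 3.58.1 (lmFit, eBayes) in R 4.3.3 on all 22180 genes, with Benjamini-Hochberg adjustment, no filter and no block. Means ± SD are over 3 arrays, and a fold is 2 raised to the log2 change. Differences between 2 genes within an array were compared by exact permutation, and as an alternative by sign flips over the 3 pairs. Arrays of the same title number deviated together (correlations 0.26, 0.34 and 0.45, each above 0.1), so the blocked fit is given where it changes a call. These numbers stand in the titles only, without a label that ties them to preparations.

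The 10 genes and the lists were chosen with earlier results of these data known. Named beside the 10 are Abcb11 and Nr0b2, up to 4 genes per list with the smallest p, genes past the threshold in either fit and a set of relatives. Sox9, Hnf4a, Tat, Serpina1a, Pecam1, Gstm2, Gstm6, Adgre1, Cd68, Atf3 and Ddit3 were named after their values were seen. Promoter windows are from RefSeq (GRCm38.p6). The build used for the array files is not given in the sources used here.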

Additional observations from a re-analysis of the deposited data

How the results depend on the processing

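Across 17 alternatives, the changes of Nfe2l2, Keap1, Mafg, Maff, Gclm, Gclc, Osgin1 and Hmox1 kept their direction. Mafk ran from -0.12 to 0.0135 and Nqo1 from -0.14 to 0.28 with arrays or pairs left out, and both turned sign. The count of the 10 genes past the adjusted threshold was 0, except 1 (Gclm) with trended and robust variances. Over all genes 11 were raised and 0 lowered. The lowered count was 2 with the replicate block, 1 without genes under the median level and 3 with trended and robust variances. The raised count was 2 when all probe sets were tested, where both the moderated variances and the adjustment draw on more features. With arrays or pairs left out the raised count was 2 to 10 and the lowered count 0 to 3. The conjugation and export list had 1 gene past the threshold with the replicate block, Gsta4, and the other 7 lists had 0 in every setting. The 4 differences between genes kept their direction in all 9 alternatives each, with Gclm minus Gclc at 1.02 to 1.05. The cause of a change was not tested.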

Other observations

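The replicate number of the lowest array was shared by 5 of the 10 genes. Gclm, Gclc, Osgin1, Hmox1 and Nqo1 were lowest in replicate 3 of both groups, and 17.7% of all genes were. Nfe2l2, Gclc, Osgin1 and Hmox1 were highest in replicate 2 of both groups, and 14.5% of all genes were. Gsta4 and Gstm3 had the same order, with the highest value in replicate 2 and the lowest in replicate 3 of each group. Mafg was lowest in replicate 2 of both groups. This order was noticed in the data, and genes on the same arrays are not independent.

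Hspa1b, like Hspa1a, was high in replicate 3 of both groups, at 6.28, 5.89 and 8.20 with GW4064 and 6.35, 6.05 and 8.24 with DMSO. Its log2 change with GW4064 was -0.09 (SE 0.66 without the block, 0.08 with it).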
